A study of Mus musculus with 2 samples.

Results

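The genes described here encode the mitochondrial respiratory chain and its ATP synthase. They were taken by symbol from the deposited feature list: every symbol that starts with mt-Nd, mt-Co, mt-Cytb, mt-Atp, Nduf, Uqcr, Cox4, Cox5, Cox6, Cox7, Cox8 or Atp5, without the 1 symbol that carries the mark -ps. This gave 102 genes of 32285 features, of which 13 are encoded by the mitochondrial genome and 89 by the nuclear genome. The nuclear genes fall into 36 of complex I, 8 of complex III, 20 of complex IV, 17 of complex V and 8 assembly factors of complex I. Ndufa4 and Ndufa4l2 were placed with complex IV, to which the protein of Ndufa4 belongs despite its name.

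Retinal cells came from mice of a B6.Cg background with the allele Gt(ROSA)26Sortm9(CAG-tdTomato)Hze, a tdTomato reporter that stays silent until Cre recombinase acts on it. The mice were 14 weeks old and had received an adeno-associated virus (AAV) 8 weeks earlier, and tdTomato-positive cells were sorted and counted in droplets. Each group has 1 library, and since one carries the label MullerControl, the other, Muller, stands here for the test group. Per the labels' protocols about 4.9% of the test and 10% of the control cells were positive, 60000 and 120000 were sorted, and 27000 were loaded per library. The labels do not say what either virus carried, which promoter drove it or how many mice were pooled, and whether a barcode carried the reporter was not analysed here. The series title asks whether Müller cells, the main glia of the retina, turn into retinal ganglion cells, whose axons leave the eye as the optic nerve. With 1 library per group no test between groups was possible and no p-value is given. Intervals in brackets are 95% intervals for counting error only, without the variation between mice, sorts, libraries or cells.

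The respiratory chain passes electrons from complex I and II through complex III to complex IV, which reduces oxygen, and the proton gradient built on the way drives ATP synthesis by complex V. Complexes I, III, IV and V are mosaics: their core subunits are made inside the mitochondrion from mitochondrial DNA, and the other subunits are made in the cytosol from nuclear genes and imported. Photoreceptors pack mitochondria into the ellipsoid of the inner segment and are among the most energy-demanding cells of the body, whereas Müller glia are known for glycolysis. Several subunits of complex IV come in pairs of isoforms encoded by different nuclear genes, which are used in different tissues.

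The Muller and MullerControl libraries held 12316 and 11309 barcodes and 25622379 and 23549118 unique molecular identifiers (UMIs, one count per captured transcript), with medians of 1478 and 1552 UMIs per barcode. The libraries shared 40 barcode sequences. After filtering, 11049 and 10027 barcodes were kept. Classes were set by gates on marker genes, so each is a range of marker content and not a proven cell type. They held 3237 and 5698 rod-like, 361 and 915 cone-like, 3218 and 1102 bipolar-like, 676 and 197 amacrine-like, 1175 and 687 Müller-glia-like and 105 and 152 microglia-like barcodes, with the Muller library first in every pair here and below. The shares of barcodes that passed a gate but not its stricter form ran from 0% of the MullerControl microglia to 40.1% of the MullerControl amacrine cells. Horizontal cells, with 11 and 1 barcodes, were left out. The level of a gene is its UMIs per 1000000 UMIs of the class (CPM). Per the labels' protocols a 3′ kit was used, so levels are not divided by gene length, and levels of different genes are compared only as captured UMIs. A lower share can come from fewer transcripts of a gene or from more of all others, and these cannot be told apart in a share.

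Neighbouring mitochondrial genes overlap on the same strand in places, which bears on how their UMIs can be read. mt-Atp8 shares 43 bases with mt-Atp6 and mt-Nd4l shares 7 with mt-Nd4, while mt-Atp6 and mt-Co3 share 1 base. The longer overlaps are shown. mt-Atp8 and mt-Atp6 are carried on 1 shared transcript, and so are mt-Nd4l and mt-Nd4. The first sequence is all of mt-Atp8, with the 43 bases that are also the start of mt-Atp6 in capitals. The second is the last 60 bases of mt-Nd4l, with the 7 bases shared with mt-Nd4 in capitals.
mt-Atp8, chrM:7766-7969, plus strand, GRCm38: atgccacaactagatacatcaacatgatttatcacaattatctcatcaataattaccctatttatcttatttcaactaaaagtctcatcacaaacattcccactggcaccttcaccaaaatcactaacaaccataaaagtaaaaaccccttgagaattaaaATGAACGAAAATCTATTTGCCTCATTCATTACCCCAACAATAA
mt-Nd4l, end of chrM:9877-10173, plus strand, GRCm38: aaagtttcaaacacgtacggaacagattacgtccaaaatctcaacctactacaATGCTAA

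How reads in these shared bases were assigned is not given in the sources used here, so the levels of mt-Atp8 and mt-Nd4l are uncertain. mt-Atp8 had 0.0749% and 0.106% of the mitochondrial UMIs over the 6 classes against 11.7% and 15.1% for mt-Atp6, its partner on the transcript. mt-Nd4l had 0.535% and 0.566% against 8.20% and 7.48% for mt-Nd4. mt-Nd6, the one member of the 13 that lies on the minus strand, had 0.0425% and 0.0483%.

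Promoters of the nuclear genes were searched for 3 short motifs. RefSeq promoter windows of 300 bases (250 before and 50 after the start, GRCm38.p6) matched 72 of the 89 nuclear genes by symbol. The motif of NRF1, a nuclear factor known to bind respiratory chain promoters, was searched on both strands as GCGCA, any 1 base, then GCGC, and stood in 22.2% of the 72 windows against 4.78% of 27025 windows of all genes. The ETS core CCGGAAG, the kind of site that GABPA binds, stood in 22.2% against 9.12%. The YY1 motif AANATGGCG stood in 12.5% against 2.51%, and its first bases can overlap the last of the ETS core. The member windows had a median GC content of 57.3% against 52.7% for all windows, and GC was not adjusted for. A match describes letters, not a bound site. The 250 bases before the start are shown for Cox6a1, which holds matches to both NRF1 and ETS, and for Cox6b1 and Cox6b2, an isoform pair whose use differed by class below. Capitals mark the matches.
Cox6a1, chr5:115348959-115349208, minus strand, GRCm38.p6: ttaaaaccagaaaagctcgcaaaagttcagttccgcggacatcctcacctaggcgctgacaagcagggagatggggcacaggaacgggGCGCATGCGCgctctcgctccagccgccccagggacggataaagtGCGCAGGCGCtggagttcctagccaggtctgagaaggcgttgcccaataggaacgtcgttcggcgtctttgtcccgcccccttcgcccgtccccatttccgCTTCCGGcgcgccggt
Cox6b1, chr7:30626115-30626364, minus strand, GRCm38.p6: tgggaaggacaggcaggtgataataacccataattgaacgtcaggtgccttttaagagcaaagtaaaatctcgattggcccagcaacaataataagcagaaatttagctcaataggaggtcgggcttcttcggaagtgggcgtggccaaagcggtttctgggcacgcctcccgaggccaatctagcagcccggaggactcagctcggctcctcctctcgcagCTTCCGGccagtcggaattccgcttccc
Cox6b2, chr7:4753095-4753344, minus strand, GRCm38.p6: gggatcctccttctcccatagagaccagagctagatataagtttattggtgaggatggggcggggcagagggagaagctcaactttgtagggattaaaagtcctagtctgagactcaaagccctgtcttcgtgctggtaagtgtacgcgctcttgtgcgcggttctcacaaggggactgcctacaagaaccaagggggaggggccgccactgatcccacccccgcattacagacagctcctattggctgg

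Cox6a1 held 2 NRF1 matches and 1 ETS match in these bases. Cox6b1 held 1 ETS match, and Cox6b2 held none of the 3 motifs.

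The first comparison is between cell classes. The 13 mitochondrial genes took their highest share of UMIs in bipolar-like barcodes and their lowest in microglia-like barcodes, in both libraries. The bipolar share was 5.28% (5.26% to 5.29%) in the Muller and 7.43% (7.41% to 7.46%) in the MullerControl library. Cones followed at 4.42% and 5.15%, rods at 3.598% and 4.47%, and amacrine cells at 3.48% and 3.99%. Müller glia held 2.06% and 2.58%, and microglia 1.34% and 1.54%. In these summed UMIs the order of the 6 classes was the same in both libraries, and no neighbours in it had overlapping counting intervals. By the median barcode amacrine cells, at 3.20% and 3.88%, stood above rods, at 2.82% and 3.24%, in both libraries.

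The 89 nuclear genes followed another order, with cones first. Their share was 3.11% (3.08% to 3.14%) and 3.15% (3.13% to 3.17%) in cones, 2.69% and 2.81% in bipolar cells, and 2.61% and 2.66% in rods. The other 3 classes lay well below. Amacrine cells held 1.57% and 1.53%, Müller glia 1.345% and 1.503%, and microglia 1.45% and 1.43%. In the MullerControl library the counting intervals of amacrine cells and Müller glia overlapped, and Müller glia stood above microglia there but below them in the Muller library. Amacrine cells were next to rods in the order of mitochondrial shares and next to the glia in the order of nuclear shares. These nuclear shares are of summed UMIs. By the median barcode amacrine cells had the lowest nuclear share of all classes in both libraries, at 0.962% and 0.878%. The median barcode held 1.35% and 1.46% in Müller glia, and 1.46% and 1.42% in microglia.

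**Figure D1:**
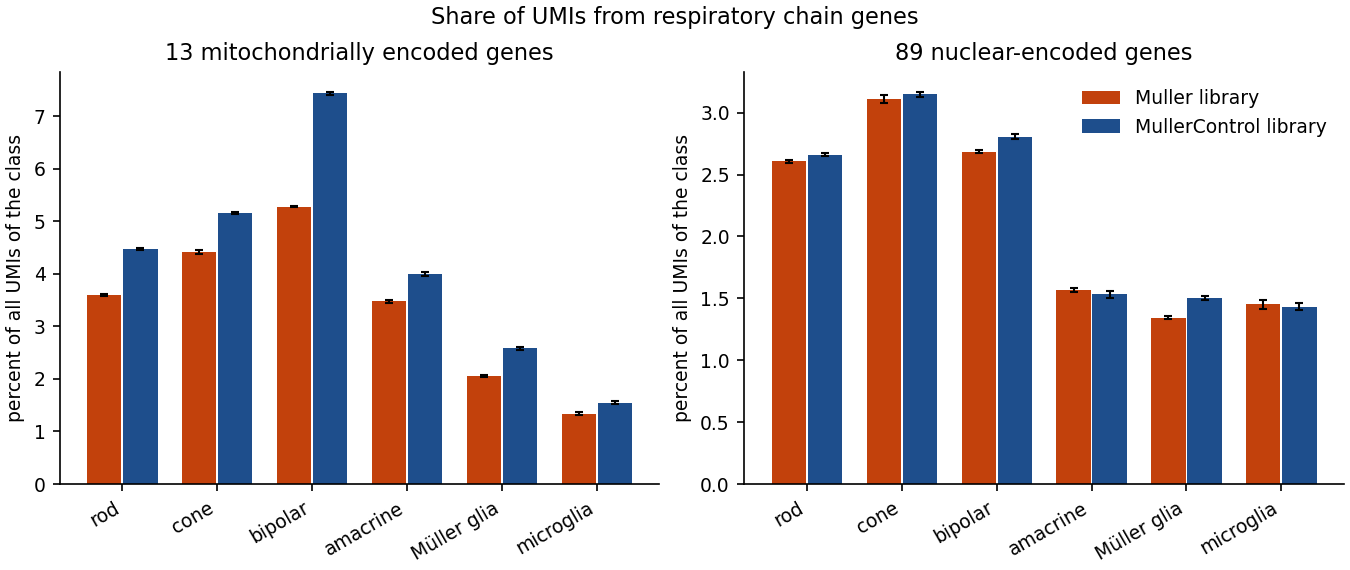
Percent of all UMIs of each class that came from the 13 mitochondrially encoded genes (left) and the 89 nuclear-encoded genes (right), with 1 bar per class and library and 95% counting intervals. Mitochondrial bars of the MullerControl library are the taller ones in all 6 classes, from 1.54% to 7.43%, while the nuclear bars of the 2 libraries lie close together.

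The ratio of mitochondrial to nuclear UMIs differed between classes by more than 2-fold. The highest values were in amacrine cells at 2.22 (2.19 to 2.25) and 2.61 (2.55 to 2.66), and in bipolar cells at 1.97 (1.96 to 1.97) and 2.65 (2.63 to 2.67), with overlapping intervals in the MullerControl library. Rods had 1.38 and 1.68, cones 1.42 and 1.64, and Müller glia 1.53 and 1.72. Microglia had the lowest ratios, 0.923 and 1.08. Within complexes the ratio depends on how many subunits the mitochondrion encodes and how strongly each is captured. For complex III, whose one mitochondrial subunit is cytochrome b (mt-Cytb), it ran from 1.75 in microglia to 6.35 in amacrine cells of the Muller library. For complex V it ran from 0.391 to 1.00 in the same classes.

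Gene by gene, a nuclear gene was counted as higher or lower in a class when it differed at least 1.5-fold from the median of the other 5 classes in both libraries. The comparison covered features with a mean of at least 20 CPM over the classes and libraries, which 82 of the 89 nuclear and 12 of the 13 mitochondrial genes reached. In cones 51 of 82 nuclear genes were higher, against 17.1% of the 7722 features compared. In bipolar cells 33 were higher (19.9% of features) and in rods 30 (12.8% of features). The median nuclear gene lay 0.81 log2 units above the other classes in cones of the Muller library, against 0.09 for the median feature. In Müller glia 42 of 82 were lower (15.2% of features), in amacrine cells 30 (9.04% of features) and in microglia 48 (41.1% of features). In the other direction Cox6b2 was lower in rods (1 of 82, 25% of features) and higher in amacrine cells (1 of 82, 29.3%), Cox4i2 was lower in cones (1 of 82, 13.8%), Cox7a2l was higher in microglia (1 of 82, 17.1%), and 0 were lower in bipolar cells (10.2%). The microglial count of lower genes is to be read against its background of 41.1%. By role, the lower genes in Müller glia were 14 of 17 of complex V, beside 10 of 14 of complex IV, 4 of 8 of complex III and 11 of 36 of complex I.

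Cones had the highest levels of several catalytic and accessory subunits. Cox8a, a small accessory subunit of complex IV, stood at 2194 and 2179 CPM in cones, 1292 and 1466 in bipolar cells, 882 and 895 in rods, and between 430.2 and 647 in amacrine cells, Müller glia and microglia. Cones were the highest class in both libraries, 1.76 and 1.88 log2 units above the median of the others. Atp5g1, which encodes the c subunit of the rotating ring of ATP synthase, followed the same pattern with 877 and 847 CPM in cones and 149 to 440 elsewhere. Atp5b, the catalytic beta subunit of ATP synthase, reached 1128 and 1430.3 CPM in cones and 969 and 1225 in rods, against 276 and 306 in Müller glia. Ndufaf5, an assembly factor of complex I, differed most sharply. It stood at 141 and 172 CPM in cones, 41.7 and 44.7 in rods, and between 5.16 and 26.1 in the other classes.

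Rods had the highest Ndufa4, a subunit of complex IV. Its level was 1506 and 1682 CPM in rods, 1185 and 1255 in cones, 1078 and 1124 in bipolar cells, and between 254 and 462 in amacrine cells, Müller glia and microglia. The 3 classes of photoreceptors and bipolar cells did not overlap with the 3 other classes. Atp5mpl, a small accessory subunit of ATP synthase, led in bipolar cells with 466 and 579 CPM, against 304 and 342 in rods and 102 to 133 in amacrine cells, Müller glia and microglia. Cox4i1, the common form of a subunit of complex IV, stood at 1326 and 1319 CPM in bipolar cells, 1361 and 1257 in cones, 1107 and 1019 in rods, 846 and 896 in microglia, and 586 to 689 in the other 2 classes. Ndufv3, a small subunit of complex I, lay 1.25 and 1.47 log2 units above the other classes in bipolar cells.

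Among subunits of complex I, Ndufb8, Ndufb9 and Ndufb11 had the most UMIs. Ndufb8 stood at 608 and 576 CPM in rods, 574 and 485 in cones and 534 and 475 in bipolar cells, against 302 and 256 in amacrine cells, 201 and 169 in Müller glia and 193 and 192 in microglia. Photoreceptors and bipolar cells lay above the other 3 classes in both libraries, and the same held for Ndufb9, at 426 to 504 against 146 to 277 CPM. Ndufb11 did so too, but with Müller glia at 237 and 298 CPM closer to bipolar cells at 353 and 344. Not every subunit followed. Ndufc2 stood at 326 and 355 CPM in amacrine cells and 311 and 339 in Müller glia, above rods at 277 and 255. Ndufa6 lay between 129 and 248 CPM in all classes, and no class passed 1.5-fold.

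Complex III, which takes electrons from ubiquinol and hands them to cytochrome c, had its most captured nuclear subunits in Uqcrh, Uqcrq and Uqcrb. Uqcrh, the hinge protein next to cytochrome c1, stood at 668 and 756 CPM in rods, 514 and 556 in bipolar cells, 446 and 493 in cones and 531 and 484 in microglia, and lower in Müller glia at 231 and 224 and amacrine cells at 229.7 and 212. Microglia lay in the range of photoreceptors and bipolar cells for Uqcrh, but not for Uqcrq, at 178 and 186 CPM against 484 and 488 in rods and 555 and 497 in cones. Of complex V, Atp5h, a subunit of the peripheral stalk, stood at 774 and 826 CPM in bipolar cells, 737 and 859.5 in cones and 649 and 685 in rods, against 354 to 467 in the other 3 classes.

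Microglia used some subunits at neuronal levels and others far below. Atp5g2, a second gene for the same c subunit, was at 653 and 602 CPM in microglia, the highest of the 6 classes. Cox7a2l, known as a factor that joins respiratory complexes into supercomplexes, was likewise highest there, at 387 and 447 CPM against 102 to 330 elsewhere. Atp5g3, the third c subunit gene, was 1.60 log2 units lower in microglia than in the other classes in both libraries. Ndufc1, a small complex I subunit, stood at 101 and 87.6 CPM in microglia and 189 to 316 elsewhere. Amacrine cells were low in Ndufa4, Atp5mpl and Atp5g1, at 1.02 to 1.48 log2 units below the other classes, but not in the assembly factors Ndufaf2, Ndufaf4 and Ndufaf7, which lay between 0.00 and 0.50 above.

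The mitochondrial genes other than mt-Nd6 are transcribed from the same strand and cut from long precursors. The makeup of their UMIs differed between classes. mt-Co1, the catalytic core of complex IV, made up 18.1% and 18.0% of the mitochondrial UMIs in bipolar cells and 16.8% and 16.9% in microglia, but 10.97% and 10.1% in rods and 10.7% and 9.60% in Müller glia. Cones lay between at 15.2% and 13.95%. These differences between classes were far wider than the counting intervals, which spanned 18.03% to 18.2% for bipolar cells and 10.8% to 11.1% for rods in the Muller library. mt-Nd2, a core subunit of complex I, made up 6.28% and 7.21% in Müller glia and 3.12% to 4.85% in all other classes. mt-Nd1 made up 7.99% and 8.51% in amacrine cells and 4.51% to 7.05% elsewhere. mt-Cytb was the largest component in all 6 classes, at 17.6% to 24.9%.

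**Figure D2:**
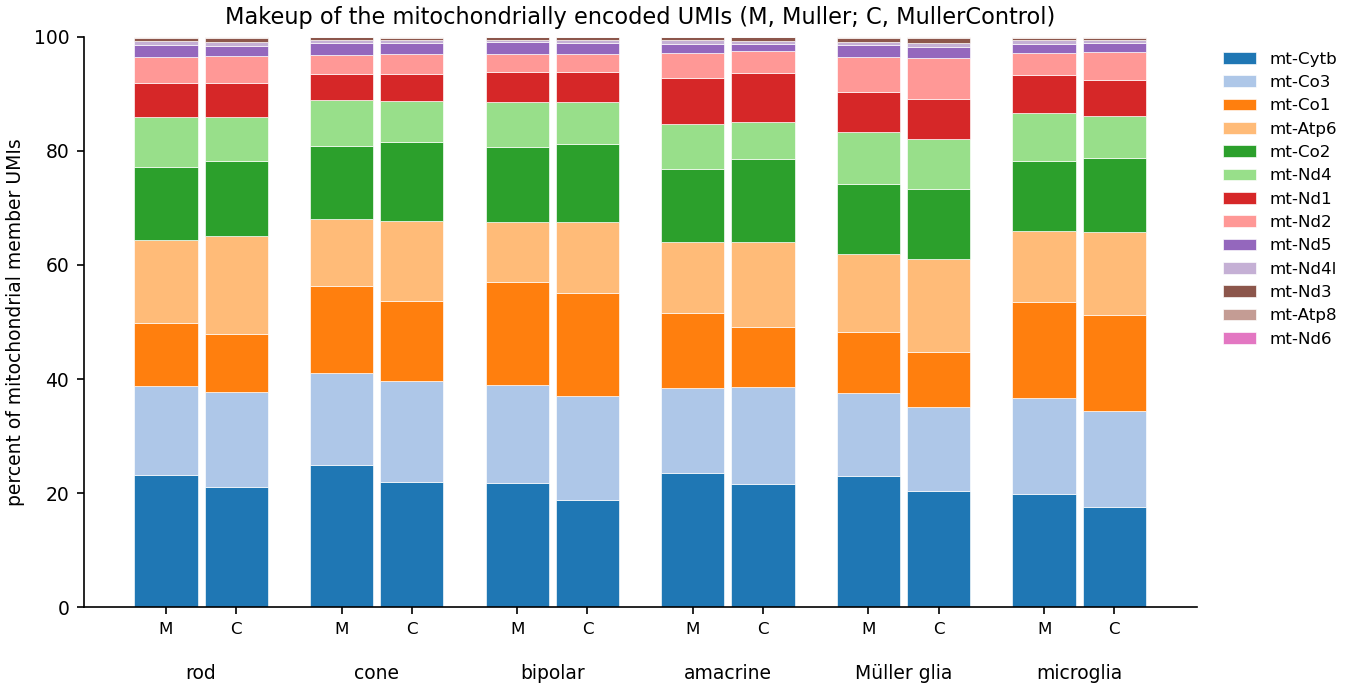
Makeup of the mitochondrially encoded UMIs by gene, in percent, with 1 bar per class and library (M, Muller; C, MullerControl). The mt-Co1 block is widest in bipolar cells at 18.1% and 18.0% and narrowest in Müller glia and rods, and the mt-Atp6 block is wider in the C bar of each class.

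Some alternative isoforms had their highest share of the pair in Müller glia or in microglia. Cox4i2, the alternative form of Cox4i1 known from lung and for oxygen sensing, made up 40.6% (38.5% to 42.7%) and 50.7% (48.6% to 52.8%) of the UMIs of the pair in Müller glia. In the other 5 classes it made up between 0.376% and 2.22%. The level of Cox4i2 (ENSMUSG00000009876, chr2:152754173-152765037) in Müller glia was 400 CPM from 872 UMIs in the Muller library and 632 CPM from 1129 UMIs in the MullerControl library, against 3.92 to 25.2 CPM in the other classes. It was found in 35.3% (32.6% to 38.1%) and 57.2% (53.4% to 60.9%) of the Müller-like barcodes and in 3.18% and 1.39% of the rod-like barcodes, whose median depths were 1360 and 1680 UMIs for Müller glia and 1222 and 1445.5 for rods. No single barcode held more than 1.15% of its UMIs in Müller glia. Within Müller glia its share of the pair was 30.4% and 43.1% in barcodes under 1000 UMIs and 49.2% and 55.7% in the deepest barcodes, of 3000 UMIs and more.

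Cox6b2, the alternative form of Cox6b1 known mainly from testis, showed the same class. It made up 18.4% (15.4% to 21.8%) and 28.1% (24.8% to 31.5%) of its pair in Müller glia, from 111 and 197 UMIs, and 4.87% and 12.05% in amacrine cells, from 28 and 20 UMIs. In rods, cones, bipolar cells and microglia it stayed between 0.901% and 2.88%. The fold rule counted Cox4i2 and Cox6b2, and no other nuclear member among the 82, as higher in Müller glia, 2 of 82 beside 20.3% of features. Cox7a1, known from heart and muscle, was below the CPM minimum. It made up 1.92% and 2.12% of the Cox7a1 and Cox7a2 UMIs in rods, 2.86% and 4.58% in Müller glia and at most 1.08% elsewhere, from 11 and 18 UMIs in Müller glia.

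Microglia held most UMIs of Cox6a2, the heart and muscle form of Cox6a1. It made up 11.1% (5.21% to 20.05%) and 24.2% (17.8% to 31.6%) of its pair there, from 9 UMIs in 5 barcodes and 39 UMIs in 13 barcodes. Elsewhere it had 1 UMI in rods, 5 in cones and 1 in amacrine cells over both libraries, and 0 in bipolar cells and Müller glia. One barcode held 44.4% of the 9 UMIs and one 20.5% of the 39. Cox7a2l made up 67.3% (60.7% to 73.4%) and 70.2% (65.9% to 74.3%) of the Cox7a2 and Cox7a2l UMIs in microglia and 34.5% to 45.5% in the 5 other classes. Of the 3 genes for the c subunit of ATP synthase, which encode the same mature protein, Atp5g1 held 49.2% and 48.0% in cones against 20.3% to 37.6% elsewhere. Atp5g2 held 65.2% and 64.1% in microglia against 26.7% to 46.0% elsewhere, and Atp5g3 held 10.1% and 10.6% in microglia against 23.1% to 41.5%.

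**Figure D3:**
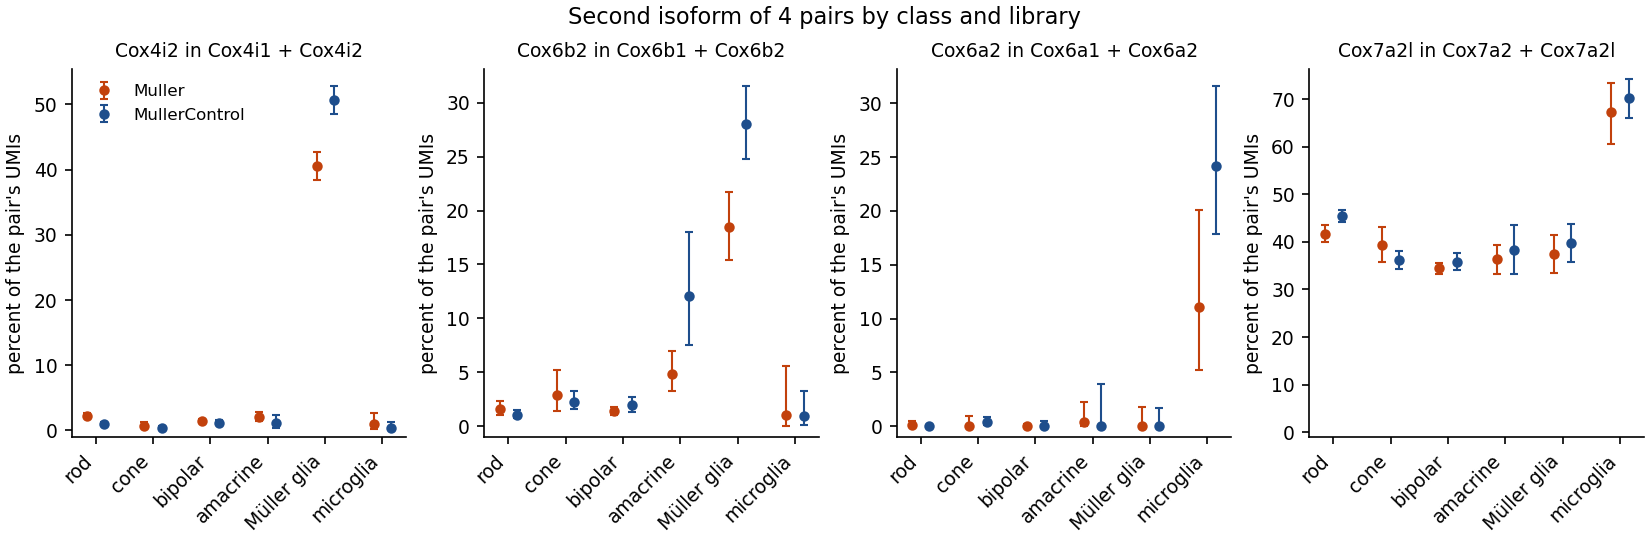
Share of the second isoform within 4 pairs, in percent of the UMIs of the pair, by class and library, with exact binomial 95% intervals. Cox4i2 and Cox6b2 are high in Müller glia, where Cox4i2 stands at 40.6% and 50.7%, and Cox6a2 and Cox7a2l are high in microglia.

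Of the 89 nuclear genes, 63 reached 100 UMIs over both libraries in every class, and 5 reached it in no class: Cox7b2, Cox6a2, Cox8b, Ndufa4l2 and Cox8c. Cox8c had 0 UMIs. These 5 were singled out for their low values. Cox8b had 30 and 11 UMIs in bipolar cells, spread over 28 and 10 barcodes, while 52.6% of its 19 UMIs in Müller glia of the MullerControl library came from 1 barcode.

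The second comparison is between the libraries within each class, and it asks whether respiratory chain transcripts differed between them. The libraries also differ in positive rate and in cells sorted. With 1 library per group these cannot be told apart from the virus. The mitochondrial share was lower in the Muller library in all 6 classes. The log2 ratio, Muller over MullerControl, was -0.49 (-0.50 to -0.49) in bipolar cells, -0.32 (-0.34 to -0.31) in Müller glia, -0.31 (-0.32 to -0.31) in rods, -0.22 in cones and -0.20 in both amacrine cells and microglia. The nuclear share differed less in all 6 classes, with log2 ratios of -0.16 (-0.18 to -0.14) in Müller glia, -0.06 in bipolar cells, -0.03 in rods, -0.02 in cones, 0.02 in microglia and 0.03 in amacrine cells. The ratio of mitochondrial to nuclear UMIs was thus lower in the Muller library in all 6 classes.

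Barcodes rich in mitochondrial UMIs moved with this difference in 4 classes. Those above 20% mitochondrial UMIs made up 5.94% (5.14% to 6.81%) of bipolar cells in the Muller library and 17.2% (15.0% to 19.5%) in the MullerControl library. In rods they made up 0.865% and 2.42%, in cones 3.88% and 7.98%, and in Müller glia 1.96% and 5.53%. In amacrine cells they made up 0% and 0.508%, and in microglia 0.952% and 0%, 1 barcode each in the MullerControl and the Muller library. Without them the mitochondrial share of bipolar cells was 4.804% and 5.89%, of rods 3.47% and 4.11%, of cones 4.18% and 4.51%, and of Müller glia 1.87% and 2.01%. It stayed lower in the Muller library in all 6 classes, but the ratio of mitochondrial to nuclear UMIs in Müller glia was then higher in the Muller library, at 1.39 and 1.34. Malat1, a long RNA kept in the nucleus, made up 15.4% and 11.5% of the UMIs of Müller glia and 5.73% and 4.73% of those of bipolar cells. It was likewise higher in rods, amacrine cells and microglia of the Muller library, but not in cones, at 5.93% and 6.09%. The part of cell damage or RNA quality in the difference was not tested. Without removal of likely doublets the microglial share was 1.63% and 1.57%, which turned its direction, and the microglial ratio of mitochondrial to nuclear UMIs was 1.09 in both libraries.

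The lower level was not even over the 13 mitochondrial genes. A gene was counted as lower or higher between libraries at 1.5-fold, among genes whose UMIs in the class, the libraries added up, reached 100. In bipolar cells 4 of 13 were lower (mt-Atp6, mt-Atp8, mt-Nd3 and mt-Nd6), against 2.74% of 9553 features, and in rods 2 of 13 (mt-Atp8 and mt-Nd3), against 1.46% of 8429 features. In Müller glia 1 of 12 was lower (mt-Nd3), against 2.81% of 6481 features. Cones (3.47% of features lower), amacrine cells (6.34%) and microglia (3.33%) had 0 of 13, 0 of 11 and 0 of 9. None of the mitochondrial genes was higher in any class. These counts rest partly on the barcodes above 20% mitochondrial UMIs: summed over classes they were 7 with them and 2 without them.

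The direction was shared more widely than the 1.5-fold count shows. The counting interval lay wholly below 0 for 13 of 13 mitochondrial genes in bipolar cells, where the same held for 14.2% of features, for 12 of 13 in rods (10.9% of features) and for 11 of 12 in Müller glia (13.9% of features). It did so for 11 of 13 in cones (9.41%), for 5 of 9 in microglia (10.1% of features) and for 6 of 11 in amacrine cells (13.7% of features). Intervals wholly above 0 were found for 0 of 13 in cones (8.53% of features), 0 of 9 in microglia (8.15%) and 3 of 11 in amacrine cells (9.18%): mt-Nd5 at 0.28, mt-Co1 at 0.14 and mt-Nd4 at 0.11 on the log2 scale.

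mt-Atp6 (ENSMUSG00000064357, chrM:7927-8607), the proton channel subunit of ATP synthase, was the lowest of the 9 genes with more than 1% of the mitochondrial UMIs in every class but microglia. Its level was 5572 and 9307 CPM in bipolar cells, 5230.3 and 7704 in rods, 5182 and 7236 in cones, 4301 and 5997 in amacrine cells, 2847 and 4228 in Müller glia and 1667 and 2237 in microglia. The log2 ratios ran from -0.42 (microglia) to -0.74 (bipolar cells). In microglia mt-Nd2, at -0.52, lay lower still. mt-Cytb, the largest component, lay above mt-Atp6 in this ratio in all 6 classes. Its level was 11478 and 14037 CPM in bipolar cells, 8362 and 9411 in rods, and 10998 and 11294 in cones, with log2 ratios from -0.29 in bipolar cells to -0.03 in microglia. The share of mt-Atp6 in the mitochondrial UMIs was lower in the Muller library in all 6 classes and over them was 11.7% against 15.1%. The share of mt-Cytb was higher in all 6 and over them was 22.4% against 20.5%. Because these are shares within the mitochondrial UMIs, they do not depend on the total UMIs of the class.

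**Figure D4:**
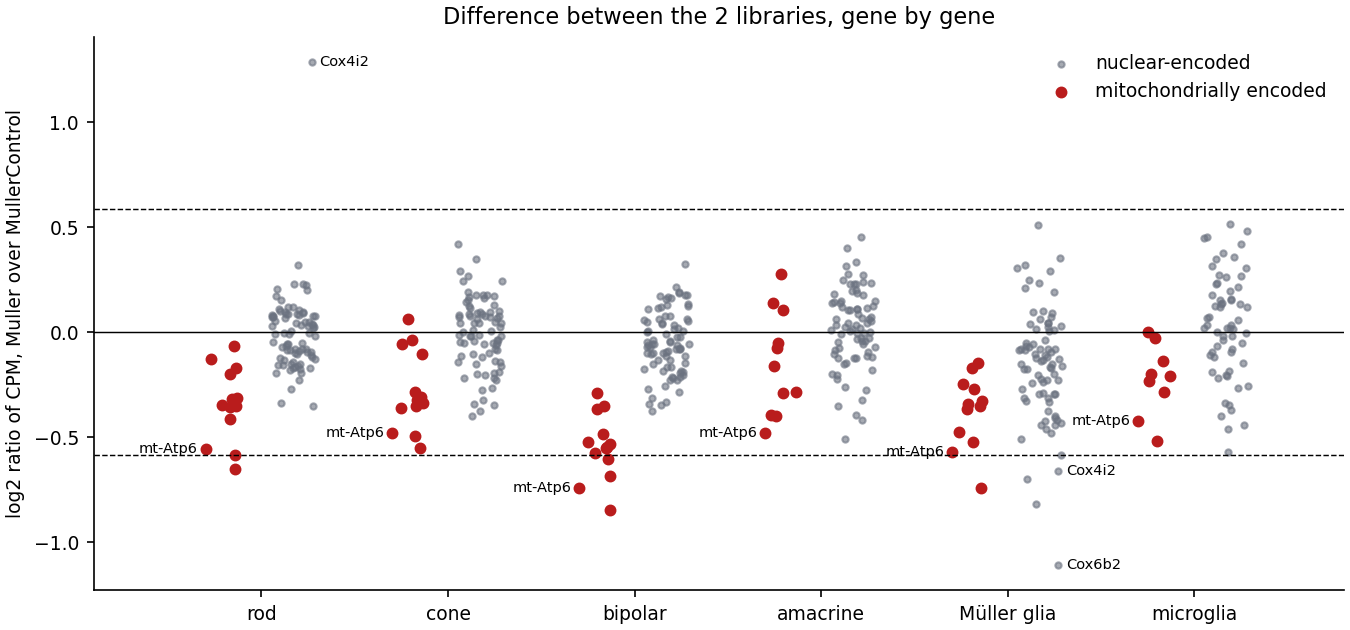
Log2 ratio of the level (CPM), Muller over MullerControl, for each gene with at least 100 UMIs in the class. Red points are mitochondrially encoded genes, grey points nuclear-encoded genes, and dashed lines mark 1.5-fold. Red points lie mostly below 0, with mt-Atp6 from -0.42 to -0.74, and grey points around 0 except in Müller glia and for Cox4i2 in rods.

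Among nuclear genes few passed 1.5-fold. In Müller glia 5 of 80 were lower, against 2.81% of features, and 0 were higher, against 3.06%. In rods 1 of 83 was higher, against 4.09% of features, and 0 were lower, against 1.46%. In cones, bipolar cells, amacrine cells and microglia 0 of 80, 82, 78 and 63 passed in either direction, where 2.11%, 1.98%, 4.29% and 2.98% of features were higher. The count of lower genes over all classes depended on the settings: it was 5, but 10 in barcodes of at least 1000 UMIs and 15 with a minimum of 20 UMIs. In Müller glia 27 of 80 nuclear genes had counting intervals wholly below 0, beside 13.9% of features, and 5 wholly above, beside 8.76%. In bipolar cells these were 28 and 10 of 82, beside 14.2% and 14.4% of features. In rods they were 20 and 12 of 83, beside 10.9% and 16.2% of features. The other classes did not lean lower in this way, with 12 and 11 of 80 in cones (9.41% and 8.53%), 5 and 8 of 78 in amacrine cells (13.7% and 9.18%) and 1 and 3 of 63 in microglia (10.1% and 8.15%).

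The 5 genes lower in Müller glia belong to different complexes. Cox6b2 stood at 50.9 and 110.3 CPM, from 111 and 197 UMIs, a log2 ratio of -1.11 (-1.46 to -0.77). Ndufa3, a small subunit of complex I, stood at 75.7 and 134 CPM, a log2 ratio of -0.82 (-1.12 to -0.53). Ndufaf8, an assembly factor of complex I, stood at 37.1 and 60.4 CPM, and Cox4i2 at 400 and 632 CPM, with log2 ratios of -0.70 and -0.66. Uqcr11, a small subunit of complex III that was singled out after its value was seen, lay just past the limit at -0.59, with 135 and 203 CPM. At the other end Ndufaf4, an assembly factor of complex I, had the highest log2 ratio at 0.51, with 45.9 and 31.9 CPM, followed by Ndufaf3 at 0.36, Ndufa5 at 0.32 and Ndufab1 at 0.31. Both alternative isoforms counted as higher in Müller glia were lower in the Muller library, though Cox6b2 was also counted as higher in amacrine cells. The common partners of both were lower by less. Cox6b1 stood at 225 and 283 CPM, a log2 ratio of -0.33 (-0.51 to -0.15). Cox4i1 stood at 586 and 615 CPM, a log2 ratio of -0.07 (-0.19 to 0.05). The difference in Cox4i2 was uneven over depth. It stood at 476 and 866 CPM in barcodes under 1000 UMIs, at 191 and 516 from there to 3000 UMIs, and at 566 and 636 from 3000 UMIs, where Cox4i1 stood at 1090.1 and 1141, 410.2 and 768, and 585 and 506. Cox6b2 stood at 70.3 and 160.3, 37.1 and 132, and 57.3 and 97.9 CPM in the same groups. The summed markers of Müller glia were also lower, at 3.11% and 4.05% of all UMIs of the class.

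Cox4i2 went the other way in rods. Its level there was 25.2 CPM from 108 UMIs and 10.3 CPM from 90 UMIs, which gives a log2 ratio of 1.29 (0.87 to 1.71). The ratio was also above 0 in the other 4 classes besides Müller glia, at 0.97 (-0.46 to 2.20) in cones, 0.32 (-0.09 to 0.79) in bipolar cells, 0.78 (-0.30 to 2.502) in amacrine cells and 0.98 (-1.92 to 3.88) in microglia, all with intervals that hold 0. Markers of Müller glia moved with it: 13 of 13 were higher in the Muller library in rods, in cones and in bipolar cells, 10 of 13 in amacrine cells and 11 of 13 in microglia. Their sum in rods was 2.96% and 0.848% of the level in Müller glia. Cox4i2 in rods stood at 6.29% and 1.63% of its own level in Müller glia, above all 13 markers, which ran from 1.67% to 3.70% and from 0.401% to 1.31%. In rods with no UMI of any of these markers, 1138 and 3684 barcodes, Cox4i2 was at 17.6 and 6.575 CPM, a log2 ratio of 1.44 (0.63 to 2.20). Those barcodes held 25 and 36 of its UMIs, and this subset was chosen after seeing the data. A rod with no marker UMI can still hold free RNA of Cox4i2, so this value does not bear on the source of the UMIs, and the part of RNA from Müller glia in the rod value was not tested.

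The other nuclear genes at the ends of the range differed by less than 1.5-fold. In rods Ndufa8, Ndufa13 and Ndufab1, subunits of complex I, had log2 ratios of 0.32, 0.23 and 0.23, and Ndufaf1, Atp5b, Cox7a2l and Uqcr10 had -0.35, -0.34, -0.27 and -0.23. For Atp5b this was 969 and 1225 CPM, and its log2 ratio was below 0 in all 6 classes, from -0.15 to -0.51. In bipolar cells Atp5k, Cox6a1, Atp5md and Ndufs6 had -0.38, -0.35, -0.34 and -0.33, and Atp5d, Ndufaf7 and Ndufs3 had 0.22, 0.19 and 0.19. Atp5k, Atp5md and Atp5mpl are small subunits at the membrane face of ATP synthase. By complex, the nuclear genes of complex V had log2 ratios of -0.07 in rods, -0.08 in cones and -0.07 in bipolar cells. Those of complex I had 0.04, 0.07 and -0.03. In Müller glia complex V had -0.12 (-0.16 to -0.07) and complex I -0.15 (-0.19 to -0.11), with overlapping counting intervals. For complex V and I, amacrine cells had -0.06 and 0.03, and microglia 0.04 and 0.06. Complex IV had -0.05 in rods and in cones, -0.11 in bipolar cells and -0.23 in Müller glia. In amacrine cells it had 0.10 and in microglia -0.06.

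A set of 49 further genes of mitochondrial energy metabolism was read beside the chain: complex II, cytochrome c and c1, assembly of complex IV, the citric acid cycle, mitochondrial transcription and its nuclear control, carriers and pores, and energy buffering. Between libraries 0 of 47 measured genes passed 1.5-fold in rods (4.09% of features higher, 1.46% lower), 0 of 45 in bipolar cells (1.98% and 2.74%) and 0 of 36 in Müller glia (3.06% and 2.81%). In cones 2 of 39 were lower, where 3.47% of features were, Ppargc1a (42.8 and 81.4 CPM) and Slirp (41.8 and 76.6 CPM). The first is a coactivator that drives mitochondrial biogenesis, and the second binds mitochondrial messenger RNAs. Ppargc1a was also the 1 of 36 that was lower in amacrine cells (61.5 and 94.6 CPM), where 6.34% of features were lower. Slc25a4, an ADP and ATP carrier, was the 1 of 18 that was higher in microglia (309.6 and 196 CPM), where 2.98% of features were higher. These 3 genes were singled out after their values were seen. Between classes 17 of 40 were lower in Müller glia (15.2% of features), 18 in microglia (41.1%) and 5 in amacrine cells (9.04%), and 12 of 40 were higher in cones (17.1%), 7 in rods (12.8%) and 7 in bipolar cells (19.9%).

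The last comparison set the nuclear genes against the mitochondrial genes barcode by barcode. Within each class, barcodes were grouped by the share of their UMIs from the 13 mitochondrial genes, and the share of the 89 nuclear genes was taken among the other UMIs, so that the mitochondrial UMIs did not enter the second share. The direction differed by class. In Müller glia the nuclear share was 1.18% (1.16% to 1.20%) and 1.29% (1.27% to 1.32%) in barcodes under 1% mitochondrial UMIs and 2.29% and 2.84% in those of 12% to 20%. In amacrine cells it went from 1.86% and 2.09% in barcodes of 1% to 3% down to 0.862% and 0.828% in those of 6% to 12%.

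Rods had a peak in between. Their nuclear share was 2.13% and 1.74% under 1%, 2.96% and 3.34% at 3% to 6%, and 2.41% in both libraries at 12% to 20%. In bipolar cells it was 3.17% and 3.25% at 1% to 3% and 1.74% and 2.22% at 12% to 20%, and in the 189 MullerControl barcodes of 20% and more it was back at 3.57%, against 1.60% in the 192 such barcodes of the Muller library. In cones the highest values were 4.32% at 6% to 12% in the Muller library and 4.44% at 12% to 20% in the MullerControl library. Depth, nuclear RNA and rod marker RNA changed along these groups too. In Müller glia the median depth was 2298.5 and 4720.5 UMIs under 1% and 733 and 957 at 12% to 20%, and Malat1 took 18.3% and 14.6% and then 4.89% and 1.72% of the non-mitochondrial UMIs. In amacrine cells of the Muller library Malat1 took 10.7% at 1% to 3% and 15.9% at 6% to 12%. Rod markers took 0.362% and 0.229% of all UMIs in Müller glia under 1%, and 1.22% and 0.994% at 12% to 20%. In amacrine cells they took 0.324% and 0.243% at 1% to 3%, and 0.592% and 0.443% at 6% to 12%. The part of depth, nuclear RNA and rod marker RNA in these slopes was not tested.

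Counted gene by gene, barcodes of at least 6% mitochondrial UMIs were set against those under 3% in the same class and library. In amacrine cells of the Muller library 71 of 75 nuclear genes were at least 1.5-fold lower, against 33.8% of the 3818 features compared, and 0 were higher (20.1%). In bipolar cells 55 of 81 were lower in the Muller library (16.1% of features) and 15 of 75 in the MullerControl library (16% of features). In Müller glia 26 of 74 (21.4% of features) and 53 of 73 (21.7% of features) were higher, and none was lower. In cones 24 of 70 (13.6% of features) and 21 of 78 (7.28% of features) were higher. In rods 0 of 78 and 5 of 81 were higher, where 4.51% and 2.58% of features were, and 2 of 78 and 1 of 81 were lower, where 5.13% and 20% were. In Müller glia the Cox4i2 share fell along the same axis on which rod markers rose, and their part in the fall was not tested. It made up 45.7% and 54.9% of its pair in barcodes under 1% mitochondrial UMIs. In those of 6% and more it made up 28.1% (21.0% to 36.1%) and 43.5% (37.8% to 49.3%). Its level went from 429 to 271 CPM in the Muller library but from 619 to 734 CPM in the MullerControl library. The Cox6b2 share of its pair went from 23.9% to 8.70%, from 4 UMIs, in the Muller library. In the MullerControl library it was 30.3% in both sets of barcodes.

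**Figure D5:**
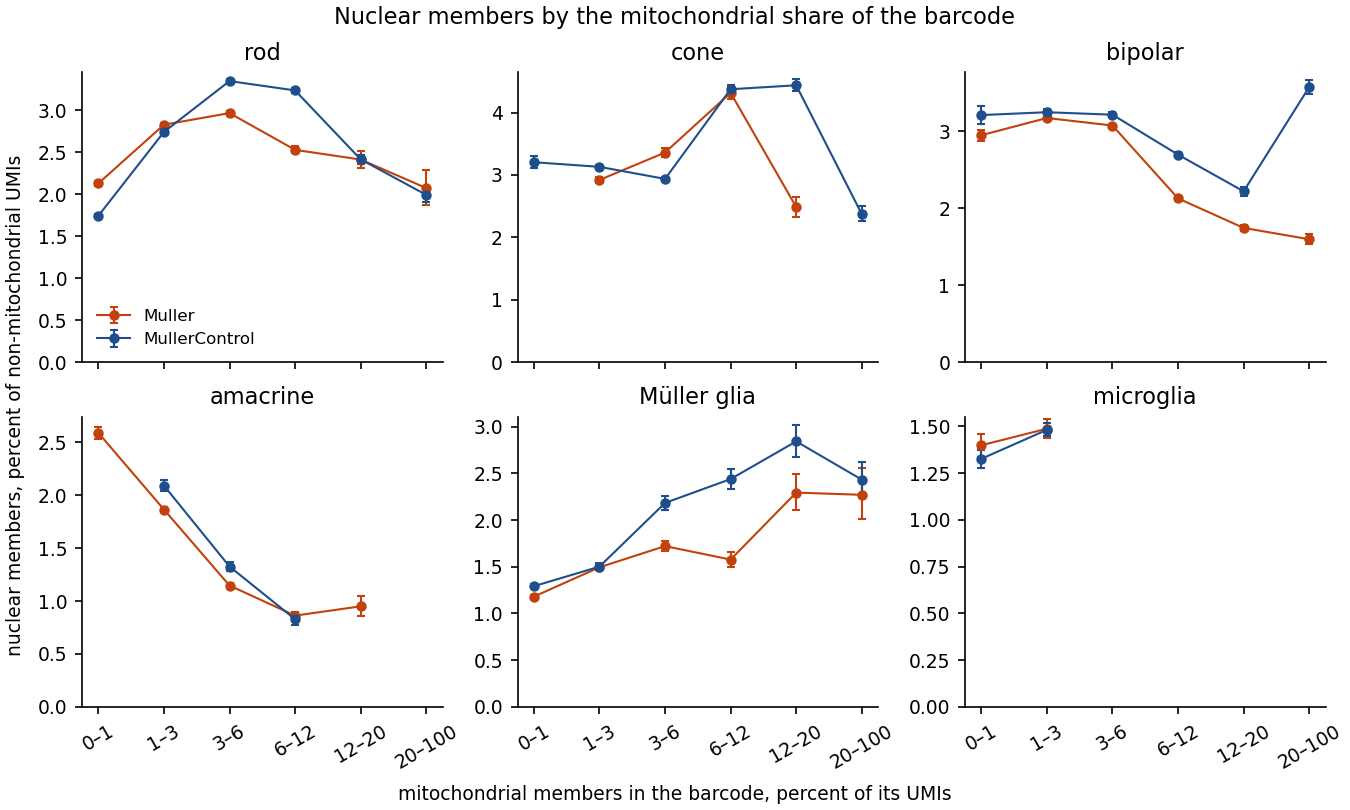
Share of the 89 nuclear genes among non-mitochondrial UMIs (percent) in barcodes grouped by their mitochondrial share (percent), by class and library, with exact binomial 95% intervals and only groups of at least 20 barcodes. The line climbs in Müller glia from 1.18% and 1.29%, falls in amacrine cells to 0.862% and 0.828% at 6% to 12%, and has a peak in the middle in rods.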

How the data were processed

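Single-cell transcripts of tdTomato-positive retinal cells were measured in 2 libraries, 1 per group. The deposited files hold UMI counts per feature and barcode, not normalized. Per the submitters' processing notes Cell Ranger 4.0.0, Seurat 4.0.5 and the builds mm10 and GRCh38 were used, without a role for each. The lowest deposited barcode total was 500 UMIs in both libraries.

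Barcodes with at least 300 genes were kept, and the highest Scrublet scores were removed (scanpy 1.11.5, 0.8% per 1000 barcodes, 1208 and 997 barcodes), since the automatic threshold called 606 and 0. No limit on the mitochondrial share was set, because the genes studied set that share. A class needed 3 markers (4 for rods and cones) and a minimum percent of non-mitochondrial UMIs from its markers (rod 4%, cone 1%, bipolar 0.5%, amacrine 0.12%, Müller glia 0.7%, microglia 1%). A barcode had to pass exactly 1 gate. The stricter form asked for 1 more marker and 1.5 times the percent. The limits were set after the data were seen. The lists hold 12 rod, 11 cone, 14 bipolar, 11 amacrine, 13 Müller glia and 13 microglia markers.

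UMIs were summed per class and library (387611 to 9360804 UMIs, which sets the counting precision) and given as CPM. Log2 ratios had 1 count added to each sum. Sums have exact Poisson and shares and ratios exact binomial (Clopper-Pearson) 95% intervals. On simulated rod sums with known changes the intervals and fold rule were checked. The sums were Poisson draws, without variation between barcodes, libraries or mice. The check therefore covers the calculation and not the spread of the real data. Genes named are the 13 mitochondrial genes, the 3 nuclear genes with the most UMIs per complex, the ends of the ratios between libraries in rods, bipolar cells and Müller glia (4 each way) and between classes (3 each way), and the isoform pairs. The members and lists were chosen with earlier results of these data known. Promoters are from RefSeq, mitochondrial sequences and positions from the GENCODE annotation of GRCm38. Python 3.11.15, numpy 2.4.6, scipy 1.17.1 and pandas 2.3.3 were used. Alternatives were other barcode, doublet, depth and gate limits, other denominators, a lower UMI minimum and medians over barcodes.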

Additional observations from a re-analysis of the deposited data

Results flagged for a closer look

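Cox4i2 differed between libraries in opposite directions in 2 classes. Its log2 ratio, Muller over MullerControl, was 1.29 in rods and -0.66 in Müller glia, and both counting intervals leave out 0. The difference between the classes was not tested, since each group has 1 library. In cones, bipolar cells, amacrine cells and microglia the ratio was 0.97, 0.32, 0.78 and 0.98. All of these intervals hold 0, so these counts cannot show whether those classes share the direction in rods. Markers of Müller glia were higher in the Muller library in 13 of 13 cases in rods, cones and bipolar cells, 10 of 13 in amacrine cells and 11 of 13 in microglia, and their sum was lower in Müller glia. Their part in the result was not tested.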

How the results depend on the processing

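No paired analysis was possible because each group has 1 library, and for the same reason no replicate could be left out. The mitochondrial share was lower in the Muller library in 6 of 6 classes, except without doublet removal (5 of 6, microglia turning). The lower ratio of mitochondrial to nuclear UMIs also held in 5 of 6 classes without doublet removal and in 5 of 6 with at most 20% mitochondrial UMIs per barcode, where the nuclear share differed less than the mitochondrial share in 5 of 6. Counts past 1.5-fold were less stable. Over all classes 7 mitochondrial genes were lower, against 2 with at most 20% mitochondrial UMIs and 12 with the stricter gate. Nuclear genes lower numbered 5, against 10 in barcodes of at least 1000 UMIs and 15 with a minimum of 20 UMIs. Nuclear genes higher numbered 1, against 2 without doublet removal, 2 with the stricter gate and 5 with a minimum of 20 UMIs. Between classes, in barcodes of at least 1000 UMIs, nuclear genes lower in rods went from 1 to 0, higher in amacrine cells from 1 to 0 and higher in Müller glia from 2 to 1. Without doublet removal those lower in rods were 0. In barcodes of at least 1000 UMIs Cox4i2 made up 43.6% of its pair in Müller glia of the Muller library, and mt-Atp6 made up 11.6% and 15.01% of the mitochondrial UMIs. With at most 20% mitochondrial UMIs mt-Atp6 made up 15.4% in the MullerControl library. The causes were not tested. Medians over barcodes moved 3 of 36 shares and ratios by more than 1.5-fold, at most 1.745-fold. None of the 24 named log2 ratios left its counting interval under any alternative run. Depth limits Cox6a2, Cox7a1 and Cox8b, with under 100 UMIs per class and library.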
